A study of Homo sapiens with 2 samples.

Results

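Short piRNA entries are the entries of a piRNA database that are listed with 27 bases or fewer and that had 10 or more reads in the small RNA library of U87MG cells. The members were chosen by their listed length and their read count, so both are given below as descriptions. By this rule 306 of the 10487 listed piRNA entries were members. They held 380929 of the 27299683 piRNA reads, or 1.40% (95% interval 1.39 to 1.40%). U87MG is an established human glioblastoma cell line, and the cells were untreated. They were grown in MEM with FBS and antibiotics, and total RNA was taken with Trizol. The series holds 1 small RNA library and 1 mRNA library of this line, with no replicate and no normal brain cell. The values below therefore describe 1 library and could not be set against a spread between replicates. Intervals are exact Clopper-Pearson intervals that cover counting error only, and database entries are not independent molecules. Overlap of intervals is given below as a description and does not show that the shares are alike.

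piRNAs are small RNAs of the germ line that are loaded on PIWI proteins and silence transposons. Primary piRNAs usually start with U. Secondary piRNAs, cut from the opposite strand by a partner that itself starts with U, usually carry A at base 10, and the pair overlaps over its first 10 bases. Lists of piRNAs in somatic cells also take up reads from abundant RNAs such as tRNA, rRNA and small nucleolar RNA. The first base and base 10 were taken here from the listed sequences, since the files hold no read sequences. T in a listed sequence stands for U.

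The 15 members with the most reads are shown first, because they carried most of the reads. Each is written 5′ to 3′ as listed, with base 1 and base 10 in capitals.
piR-33043: CcccccactGctaaatttgactggcta
piR-36233: GgggcgaagCtaccatctgtgggatt
piR-57125: TggtcgtggTtgtagtccgtgcgagaa
piR-46895: TgaacatggGtcagtcggtcctgaga
piR-48419: TgagagaaaAgcatttgccaagactt
piR-60852: TtctgggtcGgggtttcgtacgtagca
piR-33783: CtgaactccTcacacccaattggacca
PIR193269: TtcaactgcAgctgaggaagagggc
piR-34871: GagtagagtGcttagttgaacagggcc
piR-44892: TcgaaggtgGatttagcagtaaactga
piR-35280: GcattggtaTagtggtatcatgcaaga
piR-36011: GgccagcctGgtccacatgggtcggaa
piR-57660: TggttcagtGgtagaattctcgcctcc
piR-31985: CaacaagtaCcgtaagggaaagttga
piR-33044: CcccccactGctaaatttgactggtt

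The reads lay in few members. piR-33043, which starts with C and has G at base 10, had 96598 reads, or 25.4% of the member reads (25.2 to 25.5%). It was followed by piR-36233 with 48005 reads (12.6%), piR-57125 with 41503 (10.9%) and piR-46895 with 34748 (9.12%). These 4 entries held 58.0% of the member reads. Next came piR-48419 with 25646 reads, piR-60852 with 19736 and piR-33783 with 17591, and the first 7 members together held 74.5% (74.4 to 74.6%). PIR193269 had 11110 reads, piR-34871 8214, piR-44892 6566, piR-35280 5758 and piR-36011 5515. piR-57660 had 4542 reads, piR-31985 3469 and piR-33044 3095. The 15 sequences above held 87.2% (87.1 to 87.3%) of the member reads, and 291 members shared the rest. Of the 15, 7 start with U, 8 have G at base 10, and 2, piR-48419 and PIR193269, have both a first U and an A at base 10.

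Most members were far lower. Their median was 25.5 reads, against 36 for the 1029 longer entries, of 28 bases or more, that also had 10 or more reads. The read counts of both sets were bounded by the same minimum of 10 reads. At or above 1000 reads there were 31 members, at or above 100 reads 82, and below 20 reads 119. Just inside the read limit, 22 members had 10 reads, among them piR-40338, piR-43730, piR-46381, piR-46737 and piR-47324. Just outside it, 27 entries of 27 bases or fewer had 9 reads, among them piR-30273, piR-30848, piR-30925, piR-31030 and piR-31112. Just outside the length limit, the entries of 28 bases with the most reads were piR-44312 with 195853 reads, piR-57947 with 103879 and piR-30799 with 19199.

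The members were almost all of 26 or 27 bases. The list held 145 members of 26 bases with 131651 reads and 158 of 27 bases with 236262 reads. The other members were 2 of 25 bases with 12921 reads and PIR193240 of 22 bases with 95 reads. Of all 2834 entries of 27 bases or fewer, 10.8% (9.68 to 12.0%) reached 10 reads, against 13.4% (12.7 to 14.2%) of the 7653 longer ones. Both values rest on the limits that chose the members. By length the share was 10.0% at 26 bases, 11.4% at 27, 14.6% at 28, 12.5% at 29, 12.4% at 30, 13.5% at 31 and 19.5% at 32. Among these lengths, each with 440 or more entries, it was lowest at the shortest and highest at the longest, but did not rise at every step. Entries of 31 bases alone held 81.4% of all piRNA reads, whereas those of 27 bases that reached 10 reads held 0.865% and those of 26 bases 0.482%.

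U was the most frequent first base among the members by entry and by read, but its share was lower by read. Of the 306 members, 227 start with U, or 74.2% (68.9 to 79.0%). The share was 67.4% (64.5 to 70.3%) among the longer entries with 10 or more reads, with intervals that overlap. It was 78.9% (77.3 to 80.5%) among the 2528 short entries under 10 reads. By read, members starting with U held 45.1% (44.9 to 45.2%) and members starting with C 33.3%, mostly from piR-33043. Members starting with G held 20.6% and those starting with A 1.03%. Longer entries starting with U held 59.6% of their reads, and those starting with G held 31.6%. The highest members with a first U were piR-57125, piR-46895 and piR-48419, shown above. Without piR-33043 the share of member reads with a first U was 60.4%. Without the members that overlap with abundant longer entries, described below, it was 38.9%. The share thus moved in both directions with the entries left out.

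The share of entries with a first U was lowest among the members with the most reads. It was 79.0% (70.6 to 85.9%) of 119 members with 10 to 19 reads and 77.1% (67.9 to 84.8%) of 105 members with 20 to 99 reads. It was 76.5% (62.5 to 87.2%) of 51 members with 100 to 999 reads. Of the 31 members with 1000 reads or more, 13 start with U, or 41.9% (24.5 to 60.9%). The class borders were set by hand, and the shares are descriptions. Among the longer entries the share was 76.6% (71.8 to 80.9%), 75.4% (70.3 to 80.0%), 58.1% (51.4 to 64.6%) and 39.7% (31.3 to 48.6%) in the same 4 classes. In each class the intervals of short and longer entries overlapped.

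A at base 10 stood in a minority of the members and of the other entries. It was carried by 85 members, or 27.8% (22.8 to 33.2%), against 34.7% (31.8 to 37.7%) of the longer entries with 10 or more reads. Among short entries under 10 reads the share was 30.1% (28.3 to 31.9%), and both intervals overlap that of the members. G was the most frequent base at this position among the members, with 33.0% of the entries and 53.8% of the reads, while A held 12.4% (12.3 to 12.5%) of the reads. In longer entries G at base 10 held 87.7% of the reads and A 5.77%. The highest members with an A at base 10 were piR-48419, PIR193269 and piR-47161, which had 2307 reads. All 3 of them also start with U.

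Both marks together stood in 66 members, or 21.6% (17.1 to 26.6%), with 44238 reads, or 11.6% (11.5 to 11.7%) of the member reads. Most of these reads belonged to piR-48419 and PIR193269. Among the short entries under 10 reads 22.3% (20.7 to 23.9%) carried both. The share was 22.4% (19.8 to 25.0%) among the longer entries with 10 or more reads and 24.1% among all entries. By entry, the share among the members thus lay near that of the other sets. By read, entries with both held 0.330% in the longer entries with 10 or more reads and 22.2% in short entries under 10 reads. The share of reads with the mark differed by length. At 26 bases, entries with an A at base 10 held 22.3% of the reads, mostly from piR-48419, and at 27 bases they held 2.74%. By entry the shares were 24.8% (18.03 to 32.7%) and 29.7% (22.7 to 37.5%), with overlapping intervals.

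Few members overlapped with abundant longer entries. An abundant longer entry was taken as one of 28 bases or more with at least 1000 reads. There were 131 of these, with 98.2% of all piRNA reads. A run of 18 identical bases on the same strand was shared with one of them by 15 members, or 4.90% (2.77 to 7.96%), which held 50811 reads or 13.3% of the member reads. Against any longer entry of the list, whatever its reads, 39 members overlapped (12.7%, interval 9.22 to 17.01%), and 267 had no such partner. Those 267 held 85.2% (85.1 to 85.3%) of the member reads and included piR-33043, piR-36233 and piR-57125, the 3 highest. piR-36233 missed the limit by 1 base, since it shares 17 bases with the abundant piR-48966. On the opposite strand, 3 members (0.980%, interval 0.203 to 2.84%) shared a run of this length with an abundant longer entry. Overlap on the opposite strand was counted in the members alone, so no share of other entries stands beside it.

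The overlap on the same strand was also counted in the other entries. None of the 2528 short entries under 10 reads shared 18 bases with an abundant longer entry, which allows a share of up to 0.119% (3 counts of the total). Against any longer entry, 3.92% (3.19 to 4.75%) of them did. Of the 898 longer entries with 10 to 999 reads, 55 overlapped with an abundant one, or 6.12% (4.65 to 7.90%), an interval that overlaps that of the members. Overlap with any longer entry stood in 8 of 119 members with 10 to 19 reads, 10 of 105 with 20 to 99, 12 of 51 with 100 to 999 and 9 of 31 with 1000 or more. The share with an overlap was thus higher in the classes with more reads, which are cut on the same read count that chose the members. This share was not counted by class in the longer entries. Reads that fit several overlapping entries could be counted under any of them, and the authors' rule for such reads is unknown here.

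Of the overlapping pairs, 5 are shown next, because they tell how a short entry lies on a longer one. The run shared by both is in capitals, and the member stands first in each pair.
piR-46895: TGAACATGGGTCAGTCGGTCCTGaga
piR-31052: agcagtTGAACATGGGTCAGTCGGTCCTG
piR-57660: TGGTTCAGTGGTAGAATTCTCGCCTcc
piR-61648: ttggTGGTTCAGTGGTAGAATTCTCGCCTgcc
piR-43768: tCCCTGGTAGTCTAGTGGTTAGGATTC
piR-33123: CCCTGGTAGTCTAGTGGTTAGGATTCgg
piR-30456: acagtaGCATTGGTGGTTCAGTGGTA
piR-35982: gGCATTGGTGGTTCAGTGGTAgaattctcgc
piR-35466: GCCTGGGTAGCTCAGTCGGTAGAGCA
piR-35469: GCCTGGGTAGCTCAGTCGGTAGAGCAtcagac

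The 15 members lay on 14 different longer entries, each being the one with the longest shared run, which ranged over 18 to 26 bases with a median of 25. In 9 pairs the longer entry starts upstream of the member, in 2 at the same base, and in 4 the member starts upstream. Laid over each other, 9 pairs had no mismatch. In 2 of those the member lies wholly inside the longer entry, namely piR-32608 in piR-31052 and piR-35466 in piR-35469. In 4 the member runs past the 3′ end of the longer entry, as piR-46895 does by 3 bases, and in 3 it starts before the 5′ end, as piR-43768 does by 1 base. The members that run past an end thus cover bases that the longer entry does not list.

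In the other 6 pairs, of which 5 are described, the sequences differ inside the overlap. Positions are counted from 1 at the 5′ end of the member, and the base of the longer entry is written first. piR-57660 differs from piR-61648 by G26C, at its last base but 1. piR-30456 differs from piR-35982 by G6A, piR-31445 from piR-34597 by T22C, and piR-51761 from piR-59425 by A21G, G22C and C23T. piR-36246 and piR-36248 share their first 18 bases, and the member then has 1 additional G. With 1 G of the member left out, the remaining 26 bases match, so the 8 mismatches without a gap come from this shift. In piR-57660, piR-31445 and piR-51761 the differences lie toward the 3′ end, and in piR-30456 toward the 5′ end.

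In 13 of the 15 pairs the longer entry had more reads. Among the pairs shown, the widest gap stood on piR-35982. piR-30456 had 464 reads against 5357269 for piR-35982, which comes to 0.0866 member reads per 1000 reads of the longer entry. piR-57660 had 17.6 reads per 1000 of piR-61648 (258783 reads), piR-43768 had 2192 reads against 11307 for piR-33123, and piR-35466 had 308 against 3520 for piR-35469. The order was turned in 2 pairs. piR-46895 had 34748 reads against 23571 for piR-31052, or 1.47 times as many, and piR-32343 had 1204 against 1193 for piR-31661, which is 1.01 times.

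piR-36233, the second highest member, thus lay just below the limit on shared bases, and piR-31080, another member, shares 24 bases with piR-48966. The 3 sequences are shown together, with the run that piR-36233 and piR-48966 share in capitals, and in piR-31080 the run it shares with piR-48966.
piR-36233: GGGGCGAAGCTACCATCtgtgggatt
piR-48966: tgaggagccaatGGGGCGAAGCTACCATC
piR-31080: AGCCAATGGGGCGAAGCTACCATCtgt
piR-36233 had 48005 reads, piR-31080 1508 and piR-48966 4708. The reads thus were highest in the entry that starts farthest downstream. At a run of 16 or 17 bases, 20 members overlapped with an abundant longer entry, and owing to piR-36233 their share of the member reads was 26.1% instead of 13.3%.

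Overlaps of members with each other were counted in this set alone, so no share of other entries stands beside them. A run of 16 bases linked 14 members into 7 pairs and left 292 members alone, but the 14 held 49.7% of the member reads. piR-33043 and piR-33044 share their first 24 bases and differ in the last ones, and piR-33043 had 31.2 times the reads of piR-33044. piR-36233 had 31.8 times the reads of piR-31080, and piR-46895 29.1 times those of piR-32608. In these 3 pairs most reads therefore lay in 1 of the entries. The other pairs were closer, with piR-33470 (1036 reads) above piR-37182 (126) by 8.22 times and piR-52250 (24 reads) above piR-52251 (19) by 1.26 times. The last pair differs only by 1 added base at the 3′ end.

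The members were compared with the deposited miRNA list, which was counted from the same library. Of the 306 members, 2 shared a run of 16 bases with one of the 1224 listed mature miRNAs, or 0.654% (0.0793 to 2.34%). The share was 0.972% (0.467 to 1.78%) among the longer entries with 10 or more reads and 0.0396% (0.00100 to 0.220%) among short entries under 10 reads. The pair with more member reads is shown with the shared run in capitals.
piR-54381: TGGATATGATGACTGAttacctgaga
miR-4791: TGGATATGATGACTGAaa
piR-54381 had 1755 reads and miR-4791, which shares its 5′ end, had 3. Against the 1562 miRNA hairpins of RefSeq (GRCh38.p14), 2 members shared 18 bases, and one of them, piR-35240 with 38 reads, shared them with MIR1299. The members were also compared with 35116 RefSeq windows of 300 bases around the starts of coding and long non-coding genes. Hairpins and windows were compared with the members alone. No share of other entries therefore stands beside these counts, including those by strand. A run of 18 bases was shared with a window by 25 members, 13 on the strand of the gene and 16 on the other, some on both. Over their full length 6 members matched a window, 1 on the strand of the gene and 5 on the other. Of these 5, piR-33470 and piR-37182 matched overlapping positions in the same window. The match on the strand of the gene was piR-32343, which lies 30 to 4 bases before the start of LOC124904704 (GRCh38.p14, chr19:35575611-35575637). The windows cover coding and long non-coding genes alone, so the RNAs from which the members come were not named here.

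Motifs of known small RNAs were searched on both strands. The motifs were chosen after the sequences had been seen. TGATGA is the usual form of box C, which lies near the 5′ end of small nucleolar RNAs of the C/D type. It stood in 19 members, or 6.21% (3.78 to 9.53%), against 6.51% (5.08 to 8.20%) of the longer entries with 10 or more reads and 3.44% (2.77 to 4.23%) of short entries under 10 reads. Its reverse complement stood in 2 members (0.654%), 1.07% of the longer entries and 0.435% of short entries under 10 reads. In 11 of the 19 members the motif starts within the first 8 bases, and 5 of these 11 also hold CTGA, the form of box D, within their last 8 bases. The motif starts there in 33 of 67 longer entries that hold it, of which 12 also hold CTGA, and in 37 of 87 short entries under 10 reads, of which 1 does. The share that starts there was 57.9% among the members, 49.3% among the longer entries and 42.5% among the short entries under 10 reads. No interval was taken for these shares, and that of the members rests on 19 entries. The 3 highest members with TGATGA are shown with the motif in capitals.
piR-54381: tggataTGATGActgattacctgaga
piR-31106: agcccTGATGAtgcccactcctgagc
piR-34998: gattaTGATGAtgccttaacactgact
They had 1755, 1258 and 672 reads in this order. GTTCGA, the core of box B inside tRNA genes, stood in 7 members (2.29%, interval 0.925 to 4.66%), led by piR-42844 with 766 reads, against 1.75% of the longer entries and 0.158% (0.0431 to 0.405%) of short entries under 10 reads. The interval of the members overlaps that of the longer entries (1.04 to 2.75%). Its reverse complement stood in 1 member (0.327%), against 1.36% of the longer entries. TTTGGGAGG is found in Alu repeats, the most abundant transposons of the human genome, read along their own strand, and CCAGGCTGG when they are read on the opposite strand. TTTGGGAGG stood in 4 members (1.31%, interval 0.357 to 3.31%), led by piR-38756 with 360 reads. Among the longer entries its share was 0.583% (0.214 to 1.26%), an interval that overlaps that of the members. This motif stood in none of the 2528 short entries under 10 reads, which allows up to 0.119%. CCAGGCTGG stood in 3 members (0.980%, interval 0.203 to 2.84%), led by piR-60746 with 404 reads, against 0.0972% (0.00246 to 0.540%) of the longer entries and 0.0791% of short entries under 10 reads. Its reverse complement stood in 2 members (0.654%), piR-36011 with 5515 reads and piR-50546 with 647. It stood in 1.07% of the longer entries and 0.0396% of short entries under 10 reads, so the order of members and longer entries depended on the strand. No member held more than 1 of these 4 motifs as written, and 273 members held none.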

How the data were processed

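The deposited values are read counts that the authors gave for each piRNA database entry and each mature miRNA, per the file headers, with the sequence and length of each. They were not normalized. Adapters were trimmed with cutadapt, per the submitters' processing notes. For the aligner, the counter and the rule for reads that fit several entries, the sources used here give nothing. The mRNA library was not used, and a few items are not reported here.

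Entries with 27 bases or fewer and 10 or more reads were taken as members. All listed lengths equalled the sequence lengths, and all sequences were distinct. Overlap was an identical run of 18 bases on the same strand, 16 bases against miRNAs and among members. The comparison functions were tested on simulated sequences. There was 1 library, so no test was made, and shares carry exact 95% intervals. Depth was 27299683 piRNA reads. The members, motifs and limits were chosen with earlier results of these data known. Named were the 15 highest members, those nearest the limits, the 3 highest with each feature, and the overlapping members. Others were named after their values were seen. Alternatives were other read, length, run and abundance limits. Python 3.11.15, pandas 2.3.3, scipy 1.17.1 and networkx 3.6.1 were used.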

Additional observations from a re-analysis of the deposited data

How the results depend on the processing

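With a minimum of 100 reads, 82 members held 1.37% of the piRNA reads. First U then stood in 63.4% of the members and held 44.5% of their reads, and A at base 10 stood in 20.7% and held 12.0%. Of the 82, 1 overlapped with a miRNA. With an upper length of 26 bases, 148 members held 0.530% of the reads, first U held 57.2% of their reads and A at base 10 28.1%. Of these, 9 overlapped with abundant longer entries and 1 with a miRNA. Without piR-33043 the members held 1.04% of the reads, first U 60.4% and A at base 10 16.6% of theirs. Among members with no abundant longer overlap, first U held 38.9% and A at base 10 13.9% of the reads. Counting longer entries as abundant from 100 reads gave 28 overlapping members, and from 10000 reads 8. Allowing 2 mismatches over 20 bases, an alternative chosen after seeing the data, gave 26 members, with 14.7% of the member reads. The 11 added were led by piR-36026 with 2687 reads, near piR-36378 with 1049699. A miRNA run of 14 bases gave 5 members and one of 18 bases 0. Collapsing identical sequences changed no value, as all sequences were distinct. No paired analysis was possible because there is 1 library. Intervals cover counting error only.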

Other observations

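Some members had a listed entry whose first 10 bases are the exact reverse complement of their own first 10, the spacing known from pairs of primary and secondary piRNAs. This was found for 18 members, or 5.88% (3.52 to 9.14%), against 8.55% (6.92 to 10.4%) of the longer entries with 10 or more reads and 2.85% (2.23 to 3.57%) of short entries under 10 reads. In 6 of the 18 the partner itself had at least 10 reads. The highest pair was piR-47161 with 2307 reads and piR-50811, of 31 bases, with 1037 reads, shown with the first 10 bases in capitals.
piR-47161: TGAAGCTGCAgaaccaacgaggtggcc
piR-50811: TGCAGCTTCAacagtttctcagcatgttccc
piR-32286, with 122 reads, had 13 such partners with 1052 reads together, led by piR-43103 with 314. Its first 10 bases take in part of TTTGGGAGG, the Alu motif counted above, which starts at its base 4. Whether these partners come from Alu repeats was not tested. The files give no positions, so it is not known here whether such partners lie opposite each other in the genome.

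The list holds 20 entries with no NCBI identifier, and 4 of them are members. PIR193269 had 11110 reads, PIR193222 1811, PIR193241 175 and PIR193240 95, and all 4 start with U. They include the members of 22 and 25 bases. Of the 20 entries, 10 had at least 10 reads, or 50%, against 12.7% of all 10487 entries.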
